A study of Homo sapiens with 30 samples.

Results

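Interferon-stimulated genes are the genes that cells switch on after interferon binds its receptor. Here they are 48 human genes named as a list of symbols and matched by Ensembl identifier to the count tables, so that 48 of 58278 genes measured are described. Of the 48, 40 had enough reads to be tested, among 22321 genes tested in all, and 8 fell below the filter on low counts. In the textbook pathway, the receptor pair IFNAR1 and IFNAR2 passes the signal through the kinases JAK1 and TYK2 to a transcription factor complex that holds STAT2 and IRF9 and attaches to a short sequence, the interferon-stimulated response element, in the promoters of these genes. The proteins they encode sense foreign RNA or DNA, destroy or sequester viral RNA, edit it, block viral entry and release, or feed back on the pathway. Cells that take up DNA or make double-stranded RNA can start the same programme.

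Messenger RNA was counted in 30 libraries of HEK293, an established human embryonic kidney line labelled wild type, and the study asked what missense-correcting tRNAs (mc-tRNAs, engineered mischarged tRNAs) do to gene expression. All cells were transfected with a plasmid for a mutant EGFP joined to mCherry, a reporter of mistranslation, and mCherry-positive cells were sorted 48 h later, so that every group carried a plasmid and no untransfected group was analysed here. The 5 groups with an mc-tRNA had it on the same plasmid as its reporter: EGFP(R65)+Ser-tRNA_Arg(CCG), EGFP(R96Q)+Arg-tRNA_Gln(CUG), EGFP(R96C)+Arg-tRNA_Cys(GCA), EGFP(R96H)+Arg-tRNA_His(GUG) and EGFP(R96W)+Arg-tRNA_Trp(CCA). The 5 groups without one held the same reporters alone, named by the EGFP change: EGFP(R65), and for position R96 the changes EGFP(R96W), EGFP(R96H), EGFP(R96Q) and EGFP(R96C), with 3 replicates described as independent in each of the 10 groups.

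Gene totals were 39017548 to 55446962 counts per library, and a count of 0 allows up to 3 counts, or 0.0541 to 0.0769 CPM (counts scaled to a common library size), by counting error alone. Spike-in RNA (ERCC) was absent from the 6 EGFP(R65) libraries and had 10 to 106 counts in the other 24, so any difference between EGFP(R65) and the EGFP(R96) reporters cannot be told apart from a difference in library preparation. All 6 HEK293 markers passed the filter, while PTPRC and CD3E, which mark leukocytes, had 20 and 1 counts over the 30 libraries. The word called, like rose and fell, is kept for genes with a Benjamini-Hochberg adjusted p from edgeR under 0.05 over all genes tested. Levels are CPM corrected for library composition, and changes are log2 fold changes ± SE of mc-tRNA over reporter alone.

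Resting levels spanned a wide range. Per kilobase of exon in the EGFP(R96Q) reporter alone, ADAR, the enzyme that edits adenosine to inosine in double-stranded RNA, had 40.6 CPM per kb, STAT2 had 9.92, USP18, which removes ISG15 from proteins and restrains the receptor, had 8.36, and IFIT1, which binds viral RNA ends, had 1.13. Lowest among the tested members, MX2, a GTPase that restricts retroviruses, had 0.0038 and APOL6, of the apolipoprotein L family, had 0.0085 CPM per kb. The interferons themselves were close to absent: over all 30 libraries IFNB1 had 11 counts, IFNA2 had 17, IFNL1 had 4 and IFNA1 had 0. Of 10 interferon genes listed, IFNE alone passed the filter, and it was called in none of the 5 mc-tRNA comparisons.

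Promoters were set beside these levels, because the response element is the textbook link between these genes. The RefSeq promoter table (GRCh38.p14, 250 bases before to 50 after each start) held 38 of the 48 members; IFIT2, MX2, OAS2, OASL, USP18, DHX58, IRF7, TRIM22, IFITM2 and APOL6 were not among them. The core of the response element, GAAA, then any 2 bases, then GAAA, was searched on both strands, overlapping matches included. It occurred in at least 1 promoter of 24 of the 38 members (63.2%), against 4.38% of 27305 genes, and in 28 of 52 member promoters (53.8%), against 3.57% of 35116 promoters. The sequences below belong to members whose changes are described further on, on the strand of the gene, with capitals marking the matches.
IFIT1: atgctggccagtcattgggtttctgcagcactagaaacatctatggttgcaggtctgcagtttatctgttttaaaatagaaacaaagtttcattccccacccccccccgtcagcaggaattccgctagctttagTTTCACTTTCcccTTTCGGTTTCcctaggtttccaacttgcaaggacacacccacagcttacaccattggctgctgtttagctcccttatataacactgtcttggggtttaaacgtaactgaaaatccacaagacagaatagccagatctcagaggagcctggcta
IFIT3: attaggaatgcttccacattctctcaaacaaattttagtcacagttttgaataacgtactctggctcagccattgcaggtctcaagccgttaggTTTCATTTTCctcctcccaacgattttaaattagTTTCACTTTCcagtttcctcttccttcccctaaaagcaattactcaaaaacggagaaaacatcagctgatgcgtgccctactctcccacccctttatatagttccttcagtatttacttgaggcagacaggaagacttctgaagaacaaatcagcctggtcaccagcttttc
IFI27: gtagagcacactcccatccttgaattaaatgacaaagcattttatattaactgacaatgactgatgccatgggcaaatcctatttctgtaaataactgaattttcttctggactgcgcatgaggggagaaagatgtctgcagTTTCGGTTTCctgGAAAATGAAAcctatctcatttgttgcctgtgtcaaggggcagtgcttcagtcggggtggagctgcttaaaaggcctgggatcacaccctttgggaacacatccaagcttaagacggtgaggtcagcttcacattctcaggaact
BST2: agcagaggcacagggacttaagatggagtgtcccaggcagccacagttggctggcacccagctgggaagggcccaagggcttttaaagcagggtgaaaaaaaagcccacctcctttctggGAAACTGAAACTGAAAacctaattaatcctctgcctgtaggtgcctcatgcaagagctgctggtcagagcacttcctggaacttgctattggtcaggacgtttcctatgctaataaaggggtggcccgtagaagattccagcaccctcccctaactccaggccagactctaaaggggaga
MX1, first start: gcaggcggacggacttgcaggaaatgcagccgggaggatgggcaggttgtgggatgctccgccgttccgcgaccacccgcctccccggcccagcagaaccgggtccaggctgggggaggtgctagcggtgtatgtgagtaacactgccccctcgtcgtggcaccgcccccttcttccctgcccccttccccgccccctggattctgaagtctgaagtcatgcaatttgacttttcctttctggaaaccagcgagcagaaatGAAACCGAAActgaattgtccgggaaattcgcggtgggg
MX1, second start: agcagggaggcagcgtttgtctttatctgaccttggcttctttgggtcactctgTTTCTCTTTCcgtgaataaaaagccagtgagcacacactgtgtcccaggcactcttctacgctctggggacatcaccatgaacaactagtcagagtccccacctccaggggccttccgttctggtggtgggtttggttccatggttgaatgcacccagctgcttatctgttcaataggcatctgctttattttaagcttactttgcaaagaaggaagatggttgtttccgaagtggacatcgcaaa
ZC3HAV1: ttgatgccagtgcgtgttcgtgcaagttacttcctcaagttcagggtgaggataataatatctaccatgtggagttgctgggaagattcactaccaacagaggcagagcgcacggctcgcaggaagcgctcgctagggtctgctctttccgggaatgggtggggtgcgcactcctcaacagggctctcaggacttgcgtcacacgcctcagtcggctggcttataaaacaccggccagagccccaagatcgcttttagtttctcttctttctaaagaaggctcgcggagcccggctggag
They lie at chr10:89392373-89392672 (IFIT1, plus strand), chr10:89327747-89328046 (IFIT3, plus), chr14:94110486-94110785 (IFI27, plus), chr19:17405581-17405880 (BST2, minus), chr21:41420308-41420607 and chr21:41431800-41432099 (MX1, plus), and chr7:139109671-139109970 (ZC3HAV1, minus). IFIT1 and IFIT3 held 2 matches each, all on the opposite strand, IFI27 held 1 on each strand, BST2 held 2 that overlap, each MX1 start shown held 1, and ZC3HAV1 held none. A match is a stretch of letters and not a site shown to be bound.

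The 5 mc-tRNAs differed in how many members they moved and in which direction. With Ser-tRNA_Arg(CCG), 9 members rose and 21 fell, or 30 of 40 called, beside 57.3% of all genes tested (26.6% rose and 30.7% fell). With Arg-tRNA_Cys(GCA), 12 rose and 6 fell, beside 60.7% called (30.2% rose and 30.5% fell); with scaling to library totals 4 rose and 20 fell. With Arg-tRNA_Trp(CCA), 4 rose and 15 fell, beside 42.5% called (20.7% rose and 21.7% fell); with scaling to library totals 2 rose and 18 fell. With Arg-tRNA_His(GUG), 1 rose and 5 fell, beside 2.52% called (1.56% rose and 0.963% fell), and with Arg-tRNA_Gln(CUG), 1 rose and 0 fell, beside 0.551% called (0.273% rose and 0.278% fell). The share of members called was thus above the share of all genes with Ser-tRNA_Arg(CCG) and Arg-tRNA_His(GUG), near it with Arg-tRNA_Trp(CCA) and below it with Arg-tRNA_Cys(GCA), and it rests on 1 gene with Arg-tRNA_Gln(CUG). With Arg-tRNA_His(GUG) both counts depend on single libraries: without mc-tRNA replicate 1, 0 members and 53 genes were called, and without EGFP(R96H) replicate 3, 73 genes were called. The median log2 fold change of the 40 members was -0.57 with Ser-tRNA_Arg(CCG), -0.31 with Arg-tRNA_Trp(CCA), -0.30 with Arg-tRNA_His(GUG), 0.20 with Arg-tRNA_Cys(GCA) with scaling by composition factors (TMM) and 0.06 with Arg-tRNA_Gln(CUG), while the median of all genes tested was -0.02, -0.03, 0.00, -0.04 and 0.00 in the same order.

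**Figure D1:**
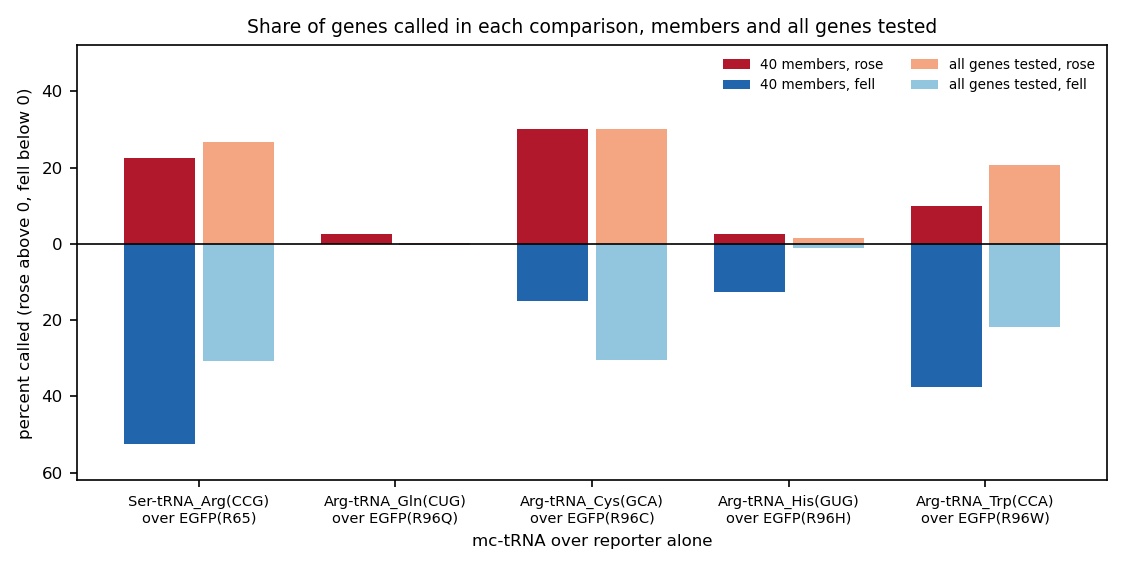
Percent of genes called at an edgeR adjusted p under 0.05 in each mc-tRNA comparison (x axis), rises above 0 and falls below 0 on the y axis, for the 40 tested members (dark bars) and the 22321 genes tested (light bars). Falls outnumber rises among members with Ser-tRNA_Arg(CCG), Arg-tRNA_His(GUG) and Arg-tRNA_Trp(CCA), and rises outnumber falls with Arg-tRNA_Cys(GCA), where scaling to library totals turns 12 rises and 6 falls into 4 and 20.

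No member was called in all 5 comparisons, where Arg-tRNA_Gln(CUG) had 0.551% of all genes tested called. Of the 40 tested, 2 were called in none (MX2 and CMPK2), 15 in 1, 13 in 2, 7 in 3 and 3 in 4, and 8 were called upward with 1 mc-tRNA and downward with another. These 8 were IFIT1, IFIT3, IFIT5, IFI44L, IFIH1, STAT2, IRF1 and SP110. For all but IFIT1 and IFIT3 the rise was the one with Arg-tRNA_Cys(GCA), and with scaling to library totals that rise turned negative for IFIT5, STAT2 and IRF1 and was not called for IFI44L, IFIH1 and SP110. How many of all genes tested had each of these patterns of calls was not computed, so the patterns are a description. Of all genes tested, 57.3%, 60.7% and 42.5% were called with Ser-tRNA_Arg(CCG), Arg-tRNA_Cys(GCA) and Arg-tRNA_Trp(CCA), in that order. In bulk libraries, a change in the share of cells that express a gene and a change in RNA per cell cannot be told apart.

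**Figure D2:**
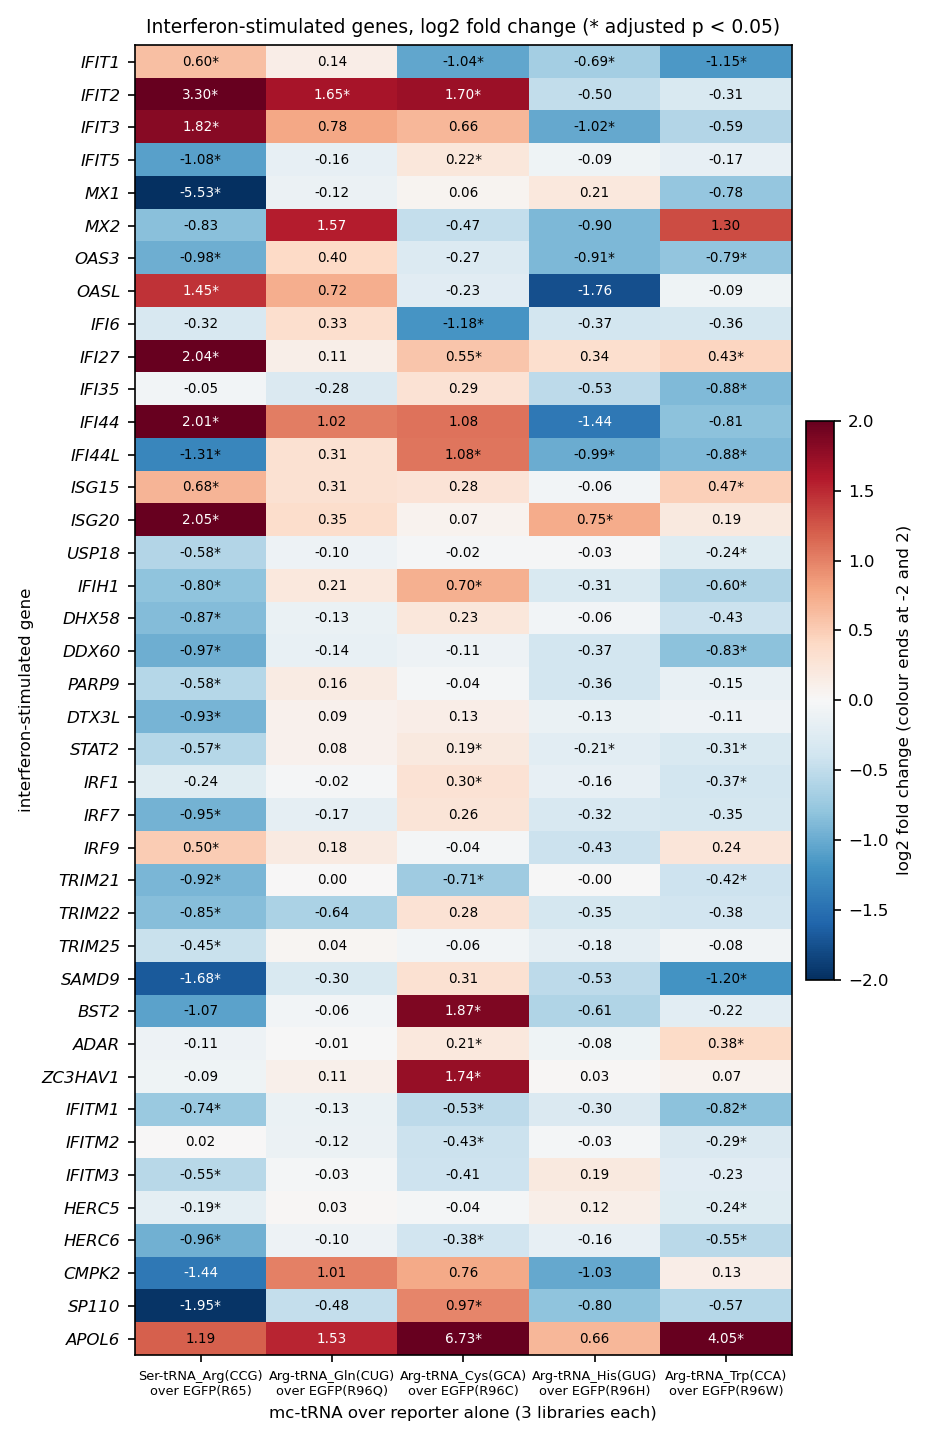
Log2 fold change (colour, ending at -2 and 2, with the value printed) of the 40 tested members (rows) in the 5 comparisons of mc-tRNA over reporter alone (columns), 3 libraries per group; a star marks an edgeR adjusted p under 0.05. The Ser-tRNA_Arg(CCG) column holds 9 starred rises and 21 starred falls, and the Arg-tRNA_Gln(CUG) column a single starred gene, IFIT2.

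With Ser-tRNA_Arg(CCG), IFIT1, IFIT2, IFIT3, ISG20, IFI27, ISG15 and IRF9 were among the rises, and IFIT5, the RNA sensors IFIH1, DHX58 and DDX60, the transcription factors STAT2 and IRF7, and MX1 were among the falls. Among the rises, IFIT2 (chr10:89283694-89309276, plus strand, GRCh38 by GENCODE release 29), whose product binds AU-rich RNA and partners IFIT3, had 1.6, 1.95 and 2.08 CPM with the mc-tRNA, against 0.203, 0.225 and 0.138 CPM with EGFP(R65) alone. ISG20, an exoribonuclease that degrades single-stranded RNA, had 9.05, 9.87 and 8.25 CPM with the mc-tRNA, against 2.41, 2.35 and 1.81 CPM with the reporter alone. IFI27, a small mitochondrial protein often used as an interferon marker, had 17.9, 18.4 and 13.8 CPM, against 4.75, 3.75 and 3.65 CPM. In all 3 genes every mc-tRNA library lay well above every library of the reporter alone. In this comparison 66.3% of all genes tested had groups that did not overlap. The log2 fold changes were 3.30 ± 0.38 for IFIT2 (adjusted p 2.35e-09), 2.05 ± 0.17 for ISG20 (adjusted p 1.75e-12) and 2.04 ± 0.14 for IFI27 (adjusted p 8.89e-15). IFI44 was also called, at 2.01 ± 0.88 (adjusted p 0.0423), but from few reads: it had 0.0891, 0.144 and 0.266 CPM, against 0.045, 0 and 0.0689 CPM, or 21 counts against 5. The remaining rises were IFIT3 at 1.82, OASL, a relative of the oligoadenylate synthetases without their activity, at 1.45, the ubiquitin-like ISG15 at 0.68, IFIT1 at 0.60 and IRF9, the DNA-binding partner of STAT2, at 0.50. The calls of OASL, IFI44 and IFIT1 were lost when EGFP(R65) replicate 1 was left out (adjusted p 0.132, 0.0796 and 0.084), and those of OASL and IFI44 also without EGFP(R65) replicate 2 (0.113 and 0.161), mc-tRNA replicate 2 (0.0745 and 0.0589) or mc-tRNA replicate 3 (0.0618 and 0.2). Without EGFP(R65) replicate 3, OASL was at 2.23. IFIT2 shares exonic positions with LIPA on the opposite strand, and IRF9 with ENSG00000259529 on its own strand, so that their counts are uncertain where reads could be assigned to either gene.

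The falls with Ser-tRNA_Arg(CCG) were led by MX1 (chr21:41420304-41459214, plus strand), a dynamin-like GTPase that traps incoming viruses. MX1 had 0.0223, 0.0721 and 0.0484 CPM with the mc-tRNA, against 2.7, 2.47 and 1.7 CPM with EGFP(R65) alone, and each mc-tRNA library held 3 counts or fewer. In all, 6 counts stood against 293, a level 50.0 times lower by counts (95% interval 22.7 to 137.5, counting error only), and edgeR gave an adjusted p of 6.73e-11. In the 24 EGFP(R96) libraries MX1 lay between 0.0564 and 0.373 CPM. SP110, a nuclear body protein, had 0.379, 0.0721 and 0.29 CPM, against 1.06, 0.825 and 1.03 CPM (-1.95 ± 0.35, adjusted p 8.4e-06). SAMD9, which restricts poxviruses, had 0.49, 0.432 and 0.508 CPM, against 1.67, 2.0 and 0.964 CPM (-1.68 ± 0.33, adjusted p 5.16e-05). IFI44L had 0.267, 0.144 and 0.387 CPM, against 0.653, 0.60 and 0.735 CPM (-1.31 ± 0.38, adjusted p 0.00333). None of the 4 genes had overlapping groups, in a comparison where 66.3% of all genes tested did not overlap.

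Sensors and regulators of the pathway were among the 21 falls with the same mc-tRNA. Of the RNA sensors, IFIH1 (MDA5), which detects long double-stranded RNA, fell by 0.80, DHX58 (LGP2), its cofactor, fell by 0.87, and DDX60, a helicase linked to RIG-I signalling, fell by 0.97 on the log2 scale. Of the transcription factors, STAT2 fell to 44.5, 45.4 and 48.2 CPM with the mc-tRNA, against 68.2, 68.6 and 67.4 CPM with the reporter alone (-0.57 ± 0.06, adjusted p 9.4e-11), and IRF7, which drives interferon-alpha transcription, fell by 0.95. IRF1 was not called (-0.24 ± 0.11). PARP9 and DTX3L, which form a ubiquitin ligase complex, fell by 0.58 and 0.93, although their exons overlap on opposite strands and no source used here states the strand option of the counting tool. The other falls were IFIT5, OAS3, HERC6, TRIM21, TRIM22, IFITM1, USP18, IFITM3, TRIM25 and HERC5, from -1.08 for IFIT5 to -0.19 for HERC5. The calls of IFITM3 and TRIM22 were lost without EGFP(R65) replicate 3 (adjusted p 0.0501 and 0.0854), that of IFITM3 also without EGFP(R65) replicate 2 or mc-tRNA replicate 1 or 2 (0.0796, 0.0771 and 0.102), and that of HERC5 without mc-tRNA replicate 2 (0.0565).

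DHX58 (chr17:42101404-42112733, minus strand) stood apart by reporter. It had 105, 115 and 127 CPM with Ser-tRNA_Arg(CCG), against 222, 208 and 203 CPM with EGFP(R65) alone. The groups did not overlap, as for 66.3% of all genes tested. In the 24 EGFP(R96) libraries, with or without an mc-tRNA, DHX58 lay between 0.319 and 1.17 CPM. The EGFP(R65) reporter alone exceeded the mean of the 4 EGFP(R96) reporters alone by 8.14 ± 0.10 on the log2 scale (adjusted p 6.54e-30). MX1 showed the same contrast at a lower level, 3.83 ± 0.28 (adjusted p 1.66e-14). The nearest tested genes on each side of DHX58, chosen after its values were seen, were lower in EGFP(R65) than in the EGFP(R96) reporters: ZNF385C was at -0.91, C17orf113 at -0.73, KAT2A at -0.31 and HSPB9 at -1.51. The EGFP(R65) libraries were also the 6 without spike-in counts, and the part of library preparation in this contrast was not tested. The reporter and any other difference between the EGFP(R65) and the EGFP(R96) libraries cannot be told apart for DHX58 or MX1, and counts per gene do not show where along either gene the reads lie.

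**Figure D3:**
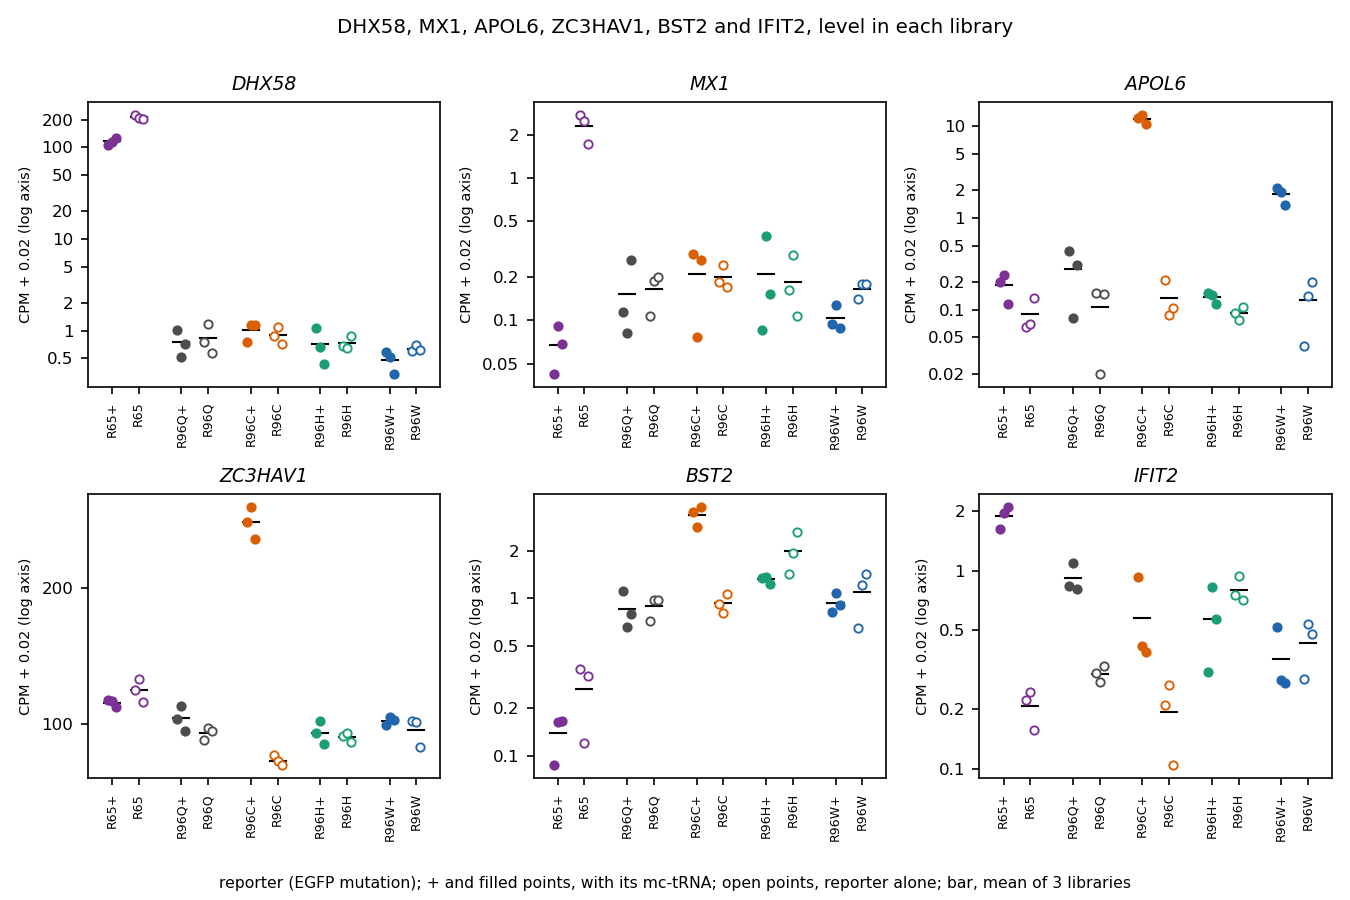
Level in each library (y axis, CPM + 0.02 on a log axis) of DHX58, MX1, APOL6, ZC3HAV1, BST2 and IFIT2 by reporter (x axis); filled points with a plus sign carry the mc-tRNA, open points the reporter alone, and bars are means of 3 libraries. DHX58 is above 100 CPM only with the EGFP(R65) reporter, and APOL6, ZC3HAV1 and BST2 are highest with Arg-tRNA_Cys(GCA).

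Arg-tRNA_Cys(GCA) raised 12 members, led by APOL6 and by the antiviral effectors BST2 and ZC3HAV1. APOL6 (chr22:35648395-35668409, plus strand) had 12.3, 13.0 and 10.6 CPM with the mc-tRNA, against 0.19, 0.067 and 0.0839 CPM with EGFP(R96C) alone. These were 1173 counts against 16, a ratio of 75.0 (95% interval 46.0 to 131.7, counting error only), with a log2 fold change of 6.73 ± 0.40 (adjusted p 1.71e-16). Outside the Arg-tRNA_Cys(GCA) and Arg-tRNA_Trp(CCA) groups APOL6 had at most 22 counts in a library. It thus passed the filter on low counts through the groups where it is high, so its adjusted p is a description and no separate support. BST2 (tetherin; chr19:17402939-17405648, minus strand), which holds budding virions at the cell surface, had 3.51, 2.79 and 3.77 CPM, against 0.904, 0.782 and 1.04 CPM (1.87 ± 0.26, adjusted p 1.11e-07). ZC3HAV1 (ZAP; chr7:139043520-139109719, minus strand), which binds CpG-rich foreign RNA and recruits its decay, had 279, 301 and 256 CPM, against 85.5, 83.0 and 81.2 CPM (1.74 ± 0.06, adjusted p 6.34e-23). IFIT2 had 0.911, 0.395 and 0.368 CPM, against 0.19, 0.246 and 0.0839 CPM (1.70 ± 0.44, adjusted p 0.000891). Groups did not overlap in any of the 4, in a comparison where 61.8% of all genes tested did not overlap, and the gap was narrowest for IFIT2. Of 8 tested neighbours of APOL6 and ZC3HAV1, chosen after the values were seen, TTC26 beside ZC3HAV1 rose (0.20 ± 0.07), and RASD2 beside APOL6 (-0.63) and ZC3HAV1L and KIAA1549 beside ZC3HAV1 (-1.23 and -0.28) fell.

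The smaller rises with Arg-tRNA_Cys(GCA) were IFI44L at 1.08, SP110 at 0.97, IFIH1 at 0.70, IFI27 at 0.55, IRF1 at 0.30, IFIT5 at 0.22, ADAR at 0.21 and STAT2 at 0.19. The falls were IFI6, TRIM21, HERC6, IFIT1, IFITM1 and IFITM2. IFI6, a small protein of the endoplasmic reticulum that limits flavivirus replication, had 3.51, 3.75 and 4.48 CPM, against 8.31, 9.43 and 8.93 CPM (-1.18 ± 0.19, adjusted p 4.57e-06). IFIT1 had 1.86, 2.76 and 2.21 CPM, against 5.0, 4.29 and 4.85 CPM (-1.04 ± 0.15, adjusted p 2.29e-07), the opposite direction to IFIT2. TRIM21, a cytosolic antibody receptor and ubiquitin ligase, had 3.31, 2.91 and 3.1 CPM, against 5.28, 4.74 and 5.15 CPM (-0.71 ± 0.12, adjusted p 5.09e-06). IFITM1, which blocks membrane fusion of viruses, had 3.27, 2.96 and 3.19 CPM, against 4.47, 5.11 and 4.01 CPM (-0.53 ± 0.15, adjusted p 0.00326). IFITM1 and IFITM2 share exonic positions and have near-identical paralogs, so reads may be split between them. Direction depended on the scale for the small rises: the composition factors (TMM) of the 3 mc-tRNA libraries were 0.714 to 0.730, and scaling to library totals moved the median of all genes tested to -0.59, with 4 members rising and 20 falling in place of 12 and 6, and put IFIT5 at -0.32, STAT2 at -0.36, IRF1 at -0.25 and ADAR at -0.34. On that scale IFI27, IFI44L, IFIH1 and SP110 kept positive values and were not called (adjusted p 0.992, 0.145, 0.552 and 0.199). Single libraries also decided 3 of the rises: without EGFP(R96C) replicate 2, STAT2 and IFIT5 lost their calls (adjusted p 0.076 and 0.063), as did IRF1 without EGFP(R96C) replicate 1 or mc-tRNA replicate 3 (0.0943 and 0.315), STAT2 without mc-tRNA replicate 1 (0.0884), and IFIT5 without EGFP(R96C) replicate 3 or any 1 of the mc-tRNA libraries (0.0501 to 0.25).

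With Arg-tRNA_Trp(CCA), falls prevailed and APOL6 was again the leading rise, although it passed the filter on low counts through the groups where it is high. APOL6 had 2.09, 1.91 and 1.37 CPM with the mc-tRNA, against 0.0202, 0.12 and 0.183 CPM with EGFP(R96W) alone, or 232 counts against 15 (ratio 15.6, 95% interval 9.25 to 28.3, counting error only; log2 fold change 4.05 ± 0.43, adjusted p 2.43e-09). ISG15 had 5.58, 6.1 and 5.87 CPM, against 3.72, 3.84 and 5.14 CPM (0.47 ± 0.14, adjusted p 0.0079). IFI27 had 5.21, 5.15 and 5.03 CPM, against 3.62, 4.1 and 3.68 CPM (0.43 ± 0.14, adjusted p 0.014). ADAR had 498, 497 and 439 CPM, against 371, 367 and 365 CPM (0.38 ± 0.06, adjusted p 1.26e-06). All 4 had groups that did not overlap, beside 47.8% of all genes tested, but ISG15 and IFI27 were no longer called without EGFP(R96W) replicate 1 (adjusted p 0.0561 and 0.0524).

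Among the 15 falls with Arg-tRNA_Trp(CCA), SAMD9 had 0.822, 0.76 and 1.16 CPM, against 2.36, 2.08 and 1.87 CPM with the reporter alone (-1.20 ± 0.29, adjusted p 0.00109). IFIT1 had 1.62, 2.08 and 2.25 CPM, against 4.57, 4.6 and 4.14 CPM (-1.15 ± 0.15, adjusted p 8.11e-08). IFI35, which pairs with NMI, had 1.07, 1.04 and 1.12 CPM, against 1.48, 2.16 and 2.31 CPM (-0.88 ± 0.21, adjusted p 0.00073). These 3 genes were lower in every mc-tRNA library than in every library of the reporter alone, beside 47.8% of all genes tested without overlap. IFI44L had 0.548, 0.456 and 0.797 CPM, against 0.95, 1.26 and 1.1 CPM (-0.88 ± 0.31, adjusted p 0.0207). The remaining falls ran from -0.83 for DDX60 to -0.24 for HERC5, the ligase that attaches ISG15, and took in IFITM1, OAS3, IFIH1, HERC6, TRIM21, IRF1, STAT2, IFITM2 and USP18. Of these, OAS3 and IFITM2 had groups that overlapped. Leaving out EGFP(R96W) replicate 3 removed the calls of OAS3, USP18, IFIH1 and IFITM2 (adjusted p 0.0583, 0.121, 0.0673 and 0.264), leaving out EGFP(R96W) replicate 2 those of IFI44L and IRF1 (0.0831 and 0.0587), and leaving out EGFP(R96W) replicate 1 those of IFIH1 and IFITM2 (0.0898 and 0.086). Leaving out an mc-tRNA library removed those of IFI44L, USP18, IFIH1 and IFITM2 (replicate 1, 0.0669, 0.0929, 0.073 and 0.0634), IFI44L and IFIH1 (replicate 2, 0.107 and 0.170) and OAS3, USP18 and IFITM2 (replicate 3, 0.0749, 0.0676 and 0.288).

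Arg-tRNA_His(GUG) moved 6 members, 5 of them downward. IFIT3, the scaffold of the IFIT complex, had 0.907, 0.829 and 0.742 CPM with the mc-tRNA, against 1.69, 1.55 and 1.78 CPM with EGFP(R96H) alone (-1.02 ± 0.24, adjusted p 0.0162). IFI44L had 1.39, 1.8 and 1.14 CPM, against 2.63, 2.16 and 3.81 CPM (-0.99 ± 0.26, adjusted p 0.0298). OAS3, which makes the oligoadenylates that activate RNase L, had 1.17, 1.39 and 1.43 CPM, against 1.75, 2.6 and 3.14 CPM (-0.91 ± 0.22, adjusted p 0.019). In these 3 genes, the mc-tRNA libraries lay below all 3 libraries of the reporter alone, in a comparison where 27.0% of all genes tested did not overlap. IFIT1 had 5.22, 6.84 and 6.35 CPM, against 9.2, 9.68 and 10.8 CPM (-0.69 ± 0.13, adjusted p 0.0028), and STAT2 had 50.9, 52.1 and 55.2 CPM, against 61.6, 61.8 and 59.4 CPM (-0.21 ± 0.06, adjusted p 0.0333). The rise was ISG20, with 2.77, 2.51 and 2.57 CPM, against 1.4, 1.36 and 1.89 CPM (0.75 ± 0.18, adjusted p 0.0198). IFI44 and OASL had lower estimates, -1.44 ± 0.61 and -1.76 ± 0.61, from 18 against 55 and 12 against 47 counts, and were not called. No call survived every omission: without mc-tRNA replicate 1 none of the 6 was called (adjusted p 0.066 for IFIT1, 0.094 for IFIT3, 0.167 for OAS3, 0.179 for IFI44L, 0.144 for ISG20 and 0.26 for STAT2), and the number of falls was 1 without EGFP(R96H) replicate 3 and 3 without EGFP(R96H) replicate 2, mc-tRNA replicate 2 or mc-tRNA replicate 3, while ISG20 was lost without EGFP(R96H) replicate 1 or 2 or mc-tRNA replicate 2 (0.0766, 0.114 and 0.060).

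**Figure D4:**
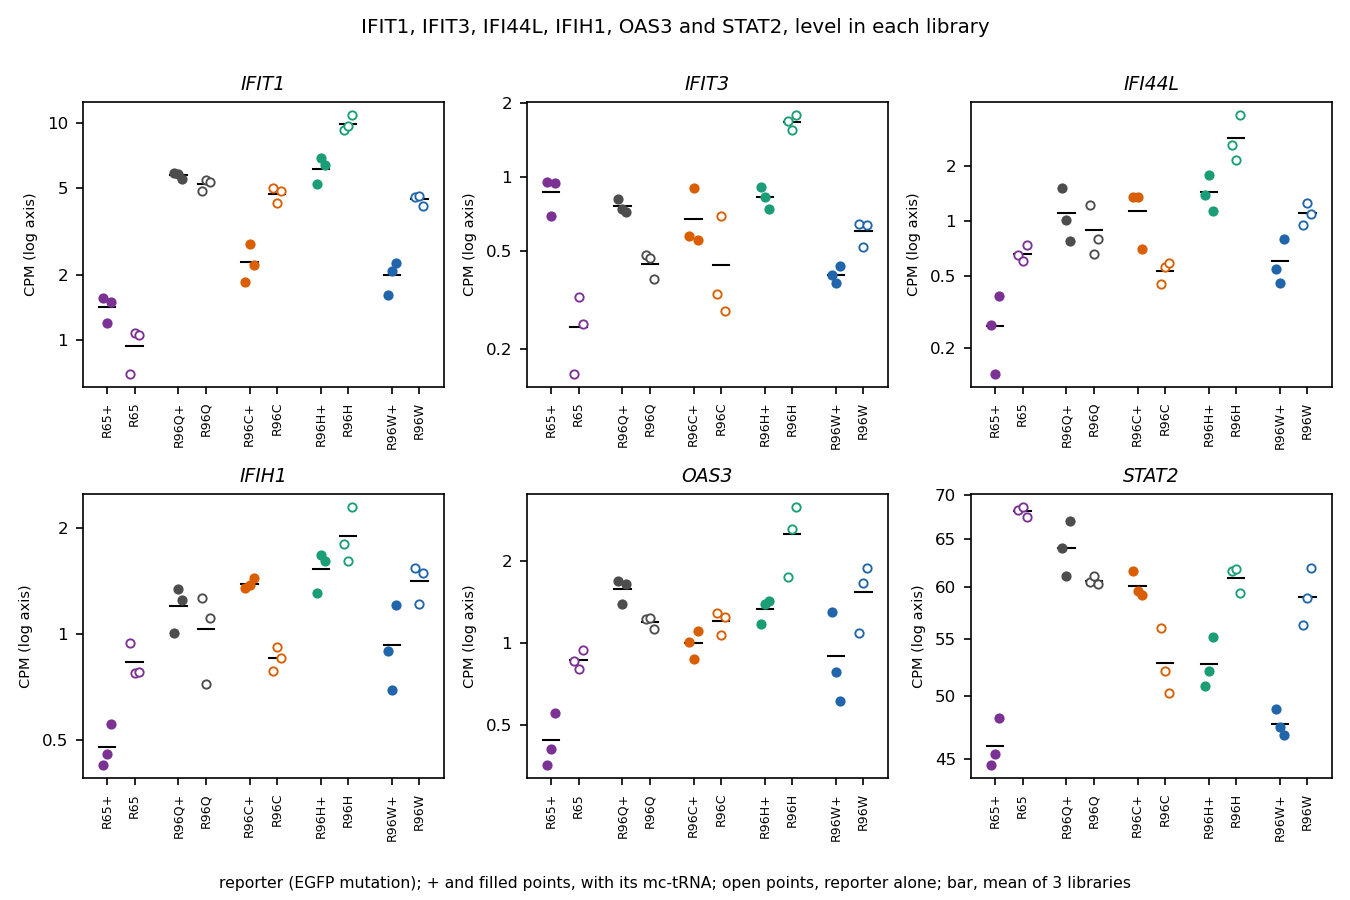
Level in each library (y axis, CPM on a log axis) of IFIT1, IFIT3, IFI44L, IFIH1, OAS3 and STAT2 by reporter (x axis); filled points with a plus sign carry the mc-tRNA, open points the reporter alone, and bars are means of 3 libraries. EGFP(R96H) alone has the highest libraries of IFIT1 (9.20 to 10.8 CPM) and IFIT3 (1.55 to 1.78 CPM), and IFIT1 is lower with the mc-tRNA than alone on the EGFP(R96C), EGFP(R96H) and EGFP(R96W) plasmids.

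With Arg-tRNA_Gln(CUG), IFIT2 was the only member called. It had 0.817, 1.07 and 0.793 CPM with the mc-tRNA, against 0.283, 0.255 and 0.31 CPM with EGFP(R96Q) alone (1.65 ± 0.36, adjusted p 0.0187). The 2 groups did not overlap, beside 16.2% of all genes tested, but the call was lost without any 1 of the EGFP(R96Q) libraries (adjusted p 0.0859, 0.128 and 0.0574) or without mc-tRNA replicate 2 (0.0919). IFIT3 at 0.78 ± 0.28, MX2 at 1.57 ± 0.75 and APOL6 at 1.53 ± 0.58 had positive estimates and were not called. At an unadjusted p under 0.05, 7 of the 40 members passed, beside 2270 of the 22321 genes tested.

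The effects themselves were then compared. An F-test across the 5 mc-tRNA effects called 36 of 40 members, beside 72.5% of all genes tested; TRIM22, IFITM2, IFITM3 and CMPK2 were not called. Without the EGFP(R65) libraries, which lacked spike-ins, the test covered the effects other than that of Ser-tRNA_Arg(CCG). It called 23 members and 12760 genes. The filter on low counts was applied anew in that fit, so these counts are not shares of the members and genes tested above. The Ser-tRNA_Arg(CCG) effect minus the Arg-tRNA_Cys(GCA) effect was called for 29 members (8 positive and 21 negative), beside 56.5% of all genes tested (25.3% and 31.3%). The negative ones included MX1 (-5.58 ± 0.86), APOL6 (-5.54 ± 1.05), BST2 (-2.94 ± 0.56) and ZC3HAV1 (-1.84 ± 0.09), and the positive ones ISG20 (1.97 ± 0.25), IFIT1 (1.64 ± 0.24) and IFI27 (1.50 ± 0.20). The Arg-tRNA_Cys(GCA) effect minus the Arg-tRNA_Trp(CCA) effect was called for 15, beside 43.7% (23.7% positive and 20% negative), and 14 of them were positive, among them APOL6 (2.68 ± 0.76), BST2 (2.09 ± 0.38), IFI44L (1.95 ± 0.45) and IFIH1 (1.30 ± 0.32); IFI6 was the negative one (-0.83 ± 0.27).

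The Ser-tRNA_Arg(CCG) effect minus the Arg-tRNA_Trp(CCA) effect was called for 18 members, 7 positive and 11 negative, beside 45.3% of all genes tested (19.5% and 25.8%), with IFIT2 (3.61 ± 0.55), IFIT3 (2.41 ± 0.43) and IFIT1 (1.75 ± 0.24) positive and MX1 (-4.75 ± 0.97) negative. The Arg-tRNA_Trp(CCA) effect minus the Arg-tRNA_His(GUG) effect was called for 4, beside 22.8% (12.1% positive and 10.6% negative): APOL6 (3.40 ± 0.91), IRF9 (0.67 ± 0.21) and ADAR (0.46 ± 0.08) were positive and HERC5 (-0.36 ± 0.09) negative. That count was 7 by DESeq2, with the replicate block or without the EGFP(R65) libraries, and 11 with library totals. IFIT1 was thus called downward with both of these mc-tRNAs (-1.15 ± 0.15 and -0.69 ± 0.13), and its difference between them, -0.47 ± 0.20, was not called (adjusted p 0.0843). In every difference of effects where APOL6 is named, its call is a description, because APOL6 passed the filter through the groups where it is high.

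The reporters without an mc-tRNA also differed. Among the 4 EGFP(R96) reporters alone, an F-test called 25 members, beside 54.7% of all genes tested. EGFP(R96H) alone had the highest mean for 24 of the 40 members (60%), against 30.2% of all genes tested. All 3 EGFP(R96H) libraries exceeded all 9 libraries of the other EGFP(R96) reporters alone for 13 members (32.5%), against 7.96% of all genes tested. The 13 were IFIT1, IFIT2, IFIT3, IFIT5, IFI44, IFI44L, IFIH1, DDX60, PARP9, SAMD9, BST2, IFITM1 and CMPK2. IFI44 had 17, 17 and 21 counts in EGFP(R96H) alone and at most 11 in any library of another group. CMPK2 had 12, 9 and 14 counts there and at most 11 elsewhere. Both passed the filter on low counts mainly through EGFP(R96H) alone, so their place in this ordering is no separate observation. This ordering was noticed in the data and is given as a description.

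For IFIT1, EGFP(R96H) alone had 9.2, 9.68 and 10.8 CPM, beside 4.86, 5.46 and 5.32 CPM in EGFP(R96Q), 5.0, 4.29 and 4.85 CPM in EGFP(R96C) and 4.57, 4.6 and 4.14 CPM in EGFP(R96W), and the last 3 groups lay close together (F-test adjusted p 5.02e-09). For IFIT3 the values were 1.69, 1.55 and 1.78 CPM in EGFP(R96H), beside 0.479, 0.467 and 0.382 CPM in EGFP(R96Q), 0.333, 0.692 and 0.285 CPM in EGFP(R96C) and 0.647, 0.52 and 0.64 CPM in EGFP(R96W), with 1 EGFP(R96C) library above the rest of its group (adjusted p 3.9e-08). IFI44L had 2.63, 2.16 and 3.81 CPM in EGFP(R96H), beside 1.22, 0.658 and 0.801 CPM in EGFP(R96Q), 0.452, 0.558 and 0.587 CPM in EGFP(R96C) and 0.95, 1.26 and 1.1 CPM in EGFP(R96W) (adjusted p 4.63e-08). ISG20 went the other way, with 1.4, 1.36 and 1.89 CPM in EGFP(R96H), beside 3.99, 3.74 and 3.86 CPM in EGFP(R96Q), 2.55, 3.31 and 3.05 CPM in EGFP(R96C) and 2.61, 2.48 and 2.29 CPM in EGFP(R96W) (adjusted p 2.35e-06). EGFP(R96H) alone had 50963577 to 55446962 counts per library and 20 to 22 spike-in counts, against 39961504 to 55206030 counts and 34 to 106 spike-in counts in the other 3 groups, and the part of depth or preparation in the ordering was not tested. The same EGFP(R96H) libraries are those against which Arg-tRNA_His(GUG) is set. With that mc-tRNA IFIT3 averaged 0.826 ± 0.0827 CPM, against 1.68 ± 0.118 CPM alone, beside 0.602 ± 0.0713 CPM in EGFP(R96W) alone (SD, n = 3 each).

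**Figure D5:**
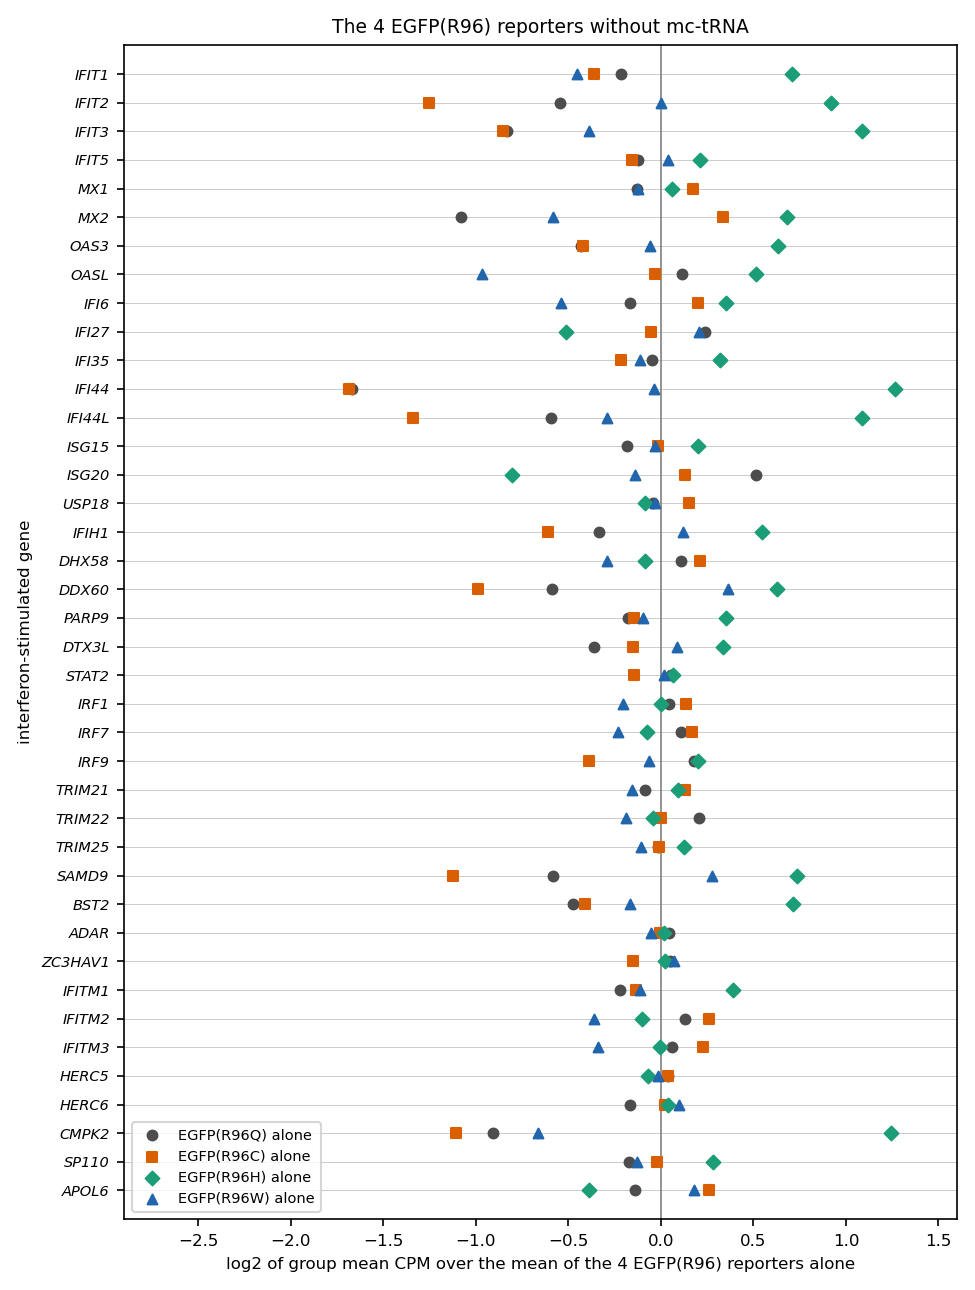
Group mean of each of the 40 tested members (rows) in the 4 EGFP(R96) reporters without mc-tRNA, as log2 of mean CPM over the mean of the 4 groups (x axis); each symbol is the mean of 3 libraries. EGFP(R96H) (diamonds) is the rightmost symbol for 24 members and is the leftmost for 5, among them ISG20.

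EGFP(R65) alone against the mean of the 4 EGFP(R96) reporters alone was called for 27 members, 10 higher and 17 lower, beside 69.0% of all genes tested (33.6% higher and 35.4% lower). Besides DHX58 and MX1, the higher ones included IFIT5 (0.66 ± 0.06) and IRF9 (0.60 ± 0.11). The lower ones were led by IFIT1 (-2.61 ± 0.14), IFI6 (-2.44 ± 0.19), BST2 (-2.18 ± 0.30) and IFITM1 (-1.63 ± 0.14). IFI6 averaged 1.38 ± 0.427 CPM in EGFP(R65) alone, against 5.31 ± 1.61 CPM in EGFP(R96W) alone, the lowest of the 4 EGFP(R96) reporters, and 9.85 ± 1.09 CPM in EGFP(R96H) alone, the highest (SD, n = 3 each).

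The 8 members under the filter were OAS1, OAS2, IFI16, RSAD2, DDX60L, PARP14, SAMD9L and XAF1, and none exceeded 18 counts in a library. For 7 of the 8, the library with the most counts was one of EGFP(R96H) alone. PARP14, with at most 4 counts, was the exception. These counts are not scaled for depth, and EGFP(R96H) alone held the deepest library, at 55446962 counts. The margin was 4 counts against 3 for IFI16 and 9 against 8 for OAS2. The share of all genes with this ordering was not computed. OAS1, an oligoadenylate synthetase, had 5 counts with Arg-tRNA_His(GUG), against 23 with EGFP(R96H) alone (ratio 0.241, 95% interval 0.0717 to 0.649, counting error only). OAS2, its relative, had 2 counts against 21 (0.106, 0.0120 to 0.432), and RSAD2 (viperin), which makes a chain-terminating nucleotide, had 5 against 24 (0.231, 0.0689 to 0.618). The replicates of EGFP(R96H) alone were uneven, with 1, 10 and 12 counts of OAS1 and 2, 7 and 15 of RSAD2.

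Upstream, the receptor and JAK-STAT genes moved in both directions. Of 15 listed, all tested, 4 rose and 4 fell with Ser-tRNA_Arg(CCG), 7 rose and 5 fell with Arg-tRNA_Cys(GCA), 5 rose and 6 fell with Arg-tRNA_Trp(CCA), and none was called with the other 2 mc-tRNAs. In the order given, 53.3%, 80% and 73.3% were called, beside 57.3%, 60.7% and 42.5% of all genes tested. IFNAR1, a chain of the receptor, fell with Ser-tRNA_Arg(CCG) (-0.25 ± 0.06), Arg-tRNA_Cys(GCA) (-0.21 ± 0.06) and Arg-tRNA_Trp(CCA) (-0.32 ± 0.06). SOCS1, which inhibits the kinases, rose with Arg-tRNA_Cys(GCA) (1.85 ± 0.56) at 0.541 CPM, against 0.142 CPM. JAK1 and PTPN2 rose with Arg-tRNA_Cys(GCA) (0.47 and 0.38) and were at -0.07 and -0.17 with scaling to library totals.

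Of 15 sensors and adaptors outside the 48 members, 14 were tested, and 0 rose and 9 fell with Ser-tRNA_Arg(CCG), 5 rose and 5 fell with Arg-tRNA_Cys(GCA), 2 rose and 4 fell with Arg-tRNA_Trp(CCA), 0 rose and 1 fell with Arg-tRNA_His(GUG), and none was called with Arg-tRNA_Gln(CUG). In the order given, 64.3%, 71.4%, 42.9% and 7.14% were called, beside 57.3%, 60.7%, 42.5% and 2.52% of all genes tested. EIF2AK2 (PKR), the kinase that halts translation on double-stranded RNA, fell with Ser-tRNA_Arg(CCG) (-0.89 ± 0.07, 63.4 against 117 CPM) and rose with Arg-tRNA_Cys(GCA) (1.19 ± 0.07, 216 against 94.6 CPM). MAVS, the mitochondrial adaptor of RIG-I and MDA5, fell with both (-0.54 ± 0.07 and -0.76 ± 0.07). CGAS, the cytosolic DNA sensor, rose with Arg-tRNA_Cys(GCA) (1.91 ± 0.38, 1.19 against 0.313 CPM), while its adaptor STING1 fell there (-1.80 ± 0.38, 0.213 against 0.752 CPM). STING1 averaged at most 1.23 CPM in any group.

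In the antigen presentation list of 17 genes, which interferons also induce, 3 rose and 8 fell with Ser-tRNA_Arg(CCG), 6 rose and 5 fell with Arg-tRNA_Cys(GCA), 0 rose and 7 fell with Arg-tRNA_Trp(CCA), and none was called with the other 2. In the order given, 64.7%, 64.7% and 41.2% were called, beside 57.3%, 60.7% and 42.5% of all genes tested. ERAP2, which trims peptides for class I molecules, fell with each of the 3, at -1.89, -0.84 and -1.24. The rises of HLA-B (0.32), HLA-C (0.23), HLA-E (0.18), B2M (0.28) and ERAP1 (0.43) with Arg-tRNA_Cys(GCA) turned negative with scaling to library totals. Of 30 other interferon-induced genes, 22 were tested, and 10 rose and 7 fell with Ser-tRNA_Arg(CCG), 5 rose and 4 fell with Arg-tRNA_Cys(GCA), 3 rose and 6 fell with Arg-tRNA_Trp(CCA), 1 rose with Arg-tRNA_Gln(CUG) and 0 moved with Arg-tRNA_His(GUG). Up to Arg-tRNA_Gln(CUG), 77.3%, 40.9%, 40.9% and 4.55% were called, beside 57.3%, 60.7%, 42.5% and 0.551% of all genes tested. TRIM5, which recognises retroviral capsids, rose with 3 mc-tRNAs, with means of 20.8, 24.1 and 22.8 CPM with Ser-tRNA_Arg(CCG), Arg-tRNA_Cys(GCA) and Arg-tRNA_Trp(CCA), against 8.16, 6.32 and 9.63 CPM with EGFP(R65), EGFP(R96C) and EGFP(R96W) alone (1.35 ± 0.10, 1.93 ± 0.10 and 1.24 ± 0.10). TRIM5 overlaps TRIM22 on the opposite strand.

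Members with and without the promoter core moved in both directions. With Ser-tRNA_Arg(CCG), 6 of 21 tested members with the core rose and 13 fell, against 1 and 4 of 10 without it. With Arg-tRNA_Cys(GCA), 5 rose and 4 fell among the 21, against 5 and 1 of 10. With Arg-tRNA_Trp(CCA), 2 rose and 9 fell among the 21, against 1 and 4 of 10. Of all genes tested, 26.6% rose and 30.7% fell with Ser-tRNA_Arg(CCG). The shares were 30.2% and 30.5% with Arg-tRNA_Cys(GCA), and 20.7% and 21.7% with Arg-tRNA_Trp(CCA). IFIT1 and IFIT3, whose sequences above each carry 2 matches, both rose with Ser-tRNA_Arg(CCG) and both fell with Arg-tRNA_His(GUG), and ZC3HAV1, with none in its window, was among the leading rises with Arg-tRNA_Cys(GCA). These counts are a description of 31 genes and no test was made on them.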

How the data were processed

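Total RNA was taken with TRIzol from sorted mCherry-positive HEK293 cells, and strand-specific polyA libraries were sequenced on a NovaSeq, per the labels' protocols. The authors deposited raw counts per gene; STAR, SAMtools, featureCounts and hg38 are named in the submitters' processing notes, with versions not given in the sources used here. Counts were analysed with edgeR 4.0.16 in R 4.3.3: filterByExpr, TMM factors, 10 group means over all 30 libraries and the robust quasi-likelihood test, adjusted by Benjamini-Hochberg over 22321 genes (threshold 0.05). CPM were scaled to each library total times its TMM factor, and SE is the log2 fold change divided by the root of F. The steps were tested on simulated data. The labels call the replicates independent without naming separate cultures, so p-values measure the spread between these samples. Some genes of the lists are counted but not reported here by name. The members and the gene lists were chosen with earlier results of these data known. In each comparison the 4 largest called rises and 4 largest called falls are given with every library. Alternatives were DESeq2 1.42.0, RLE factors, library totals, no filter, a replicate block, the 6 compared libraries alone, no EGFP(R65) libraries and each library left out. Gene positions are from GENCODE release 29 and promoters from RefSeq, both GRCh38; count intervals are exact at 95% and cover counting error only.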

Additional observations from a re-analysis of the deposited data

Results flagged for a closer look

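A total of 8 members were called in opposite directions with different mc-tRNAs. The share of all genes tested with opposite calls was not computed. Because the 8 were picked by opposite calls in the same fit, a test for unequal effects was all but bound to pass. It is therefore a description and no separate support. For each of the 8, the test of the difference among the 5 effects (edgeR quasi-likelihood F-test) passed the threshold, as for 72.5% of all genes tested. Its adjusted p was 1.27e-08 for IFIT1, 3.32e-07 for IFIT3, 2.58e-10 for IFIT5, 3.52e-05 for IFI44L, 0.000569 for IFIH1, 6.35e-10 for STAT2, 0.00247 for IRF1 and 2.14e-05 for SP110. IFIT1 rose with Ser-tRNA_Arg(CCG) (0.60 ± 0.19) and fell with Arg-tRNA_Trp(CCA) (-1.15 ± 0.15), Arg-tRNA_Cys(GCA) (-1.04 ± 0.15) and Arg-tRNA_His(GUG) (-0.69 ± 0.13). IFI44L was the reverse for Ser-tRNA_Arg(CCG) and Arg-tRNA_Cys(GCA), at -1.31 ± 0.38 and 1.08 ± 0.32. For IFIT5, STAT2 and IRF1 the rise was the small one with Arg-tRNA_Cys(GCA), whose sign turned with scaling to library totals (-0.32, -0.36 and -0.25). The rises of IFI44L, IFIH1 and SP110 with that mc-tRNA were not called on that scale (adjusted p 0.145, 0.552 and 0.199).

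The effects of different mc-tRNAs differed for 36 of 40 members across all 5, for 29 between Ser-tRNA_Arg(CCG) and Arg-tRNA_Cys(GCA), for 18 between Ser-tRNA_Arg(CCG) and Arg-tRNA_Trp(CCA), for 15 between Arg-tRNA_Cys(GCA) and Arg-tRNA_Trp(CCA) and for 4 between Arg-tRNA_Trp(CCA) and Arg-tRNA_His(GUG), each beside the share of all genes tested given above.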

How the results depend on the processing

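With Ser-tRNA_Arg(CCG), no alternative moved the counts of rises or falls by over 1.5 times. Leaving out each library in turn gave 6 to 9 rises and 19 to 21 falls with Ser-tRNA_Arg(CCG), 0 to 1 rise with Arg-tRNA_Gln(CUG), 10 to 11 rises and 6 to 7 falls with Arg-tRNA_Cys(GCA), 0 to 1 rise and 0 to 5 falls with Arg-tRNA_His(GUG), 2 to 4 rises and 11 to 13 falls with Arg-tRNA_Trp(CCA), 32 to 38 members in the test across the 5 effects and 3 to 6 for the Arg-tRNA_Trp(CCA) effect minus the Arg-tRNA_His(GUG) effect. With library totals, 4 rose and 20 fell with Arg-tRNA_Cys(GCA), 2 rose with Arg-tRNA_Trp(CCA), and 11 were called for Arg-tRNA_Trp(CCA) minus Arg-tRNA_His(GUG), where DESeq2, the replicate block and the fit without EGFP(R65) libraries each called 7. The last fit, which holds no Ser-tRNA_Arg(CCG) effect, called 23 in the test across the remaining effects. With no filter, 7 rose with Arg-tRNA_Cys(GCA), and with the 6 compared libraries alone, 9 fell with Arg-tRNA_His(GUG). Library totals moved the median of all genes to -0.587 with Arg-tRNA_Cys(GCA) and -0.161 with Arg-tRNA_Trp(CCA), and reversed with Arg-tRNA_Cys(GCA) IFIT5 (-0.32), STAT2 (-0.36), IRF1 (-0.25), ADAR (-0.34), JAK1 (-0.072), PTPN2 (-0.17), TBK1 (-0.17), HLA-B (-0.23), HLA-C (-0.32), HLA-E (-0.36), B2M (-0.26), ERAP1 (-0.11) and COL3A1 (-0.025). Over all genes, 123 were called with Arg-tRNA_Gln(CUG), against 244 by DESeq2, 66 with its 6 libraries alone and 196 with either no filter or the replicate block. With Arg-tRNA_His(GUG) 563 were called, against 927 by DESeq2, 1912 with its 6 libraries alone, 1068 with the replicate block and 369 without EGFP(R65) libraries; leaving out each library gave 53 to 636, and 45 to 93 with Arg-tRNA_Gln(CUG). Except for the scaling to library totals, whose construction moves all genes, the cause was not tested. Same-numbered libraries correlated at -0.0772 to 0.14 and 4 of 15 pairs passed 0.1, so the numbers were not taken to pair the libraries. Own number correlated best in 9 of 15 pairs, a hint from the data and not from the design. With the replicate block 8 rose and 21 fell with Ser-tRNA_Arg(CCG), 1 rose with Arg-tRNA_Gln(CUG), 13 rose and 7 fell with Arg-tRNA_Cys(GCA), 1 rose and 6 fell with Arg-tRNA_His(GUG), 4 rose and 16 fell with Arg-tRNA_Trp(CCA), and 34 differed across the 5 effects. Depth limits IFI44, OASL, CMPK2, MX2 and the 8 members under the filter, which rest on few counts.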

Other observations

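STING1 fell with 3 mc-tRNAs, at -1.95 ± 0.46 with Ser-tRNA_Arg(CCG), -1.80 ± 0.38 with Arg-tRNA_Cys(GCA) and -1.25 ± 0.32 with Arg-tRNA_Trp(CCA). LGALS3BP, a secreted glycoprotein that interferons induce, fell with Arg-tRNA_Cys(GCA) (-1.41 ± 0.10) and Arg-tRNA_Trp(CCA) (-1.09 ± 0.10). RIGI, the RNA sensor that recognises triphosphate ends, fell with Ser-tRNA_Arg(CCG), Arg-tRNA_Cys(GCA) and Arg-tRNA_Trp(CCA) by nearly the same estimate (-0.42 ± 0.09, -0.40 ± 0.09 and -0.40 ± 0.09). The chemokines CXCL10 and CXCL11, which interferon induces strongly in many cells, had 63 and 62 counts over all 30 libraries. The counts were not spread evenly. CXCL10 had 14, 9 and 11 counts with Arg-tRNA_Cys(GCA), against 0, 0 and 0 with EGFP(R96C) alone. CXCL11 had 3, 11 and 8 counts, against 0, 1 and 1.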
